A study of Mus musculus with 4 samples.

Results

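The miR-99/100 and miR-125 microRNAs (miRNAs) were followed in small RNA libraries of mouse aorta. The members were taken by name, with earlier results of these data known. They were miR-99a-5p, miR-99a-3p, miR-99b-5p, miR-99b-3p, miR-100-5p, miR-125a-5p and miR-125b-5p, which are 7 of the 1152 entries in the deposited files. CPM is a miRNA's share of a library's reads, multiplied by 1000000. All 7 also passed the filter on low values, a mean CPM of at least 1, that left 479 entries for testing. The libraries came from wild type C57BL/6 mice aged 12 weeks and formed 2 groups of 2, labelled Sham and CKD (chronic kidney disease), which the study compared to profile miRNAs in vascular calcification. Each library was made from 4 pooled samples. In the labelled model both poles of the left kidney and, 1 week later, the whole right kidney were taken out, followed by 4 weeks of a 2% phosphate diet with 0.45% NaCl in the drinking water. The labels give this text for the Sham libraries too, and how the Sham mice were handled is therefore unknown here.

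A miRNA is cut from a hairpin transcript and guides silencing proteins to messenger RNAs, mostly through its seed, bases 2 to 8. The 5p and 3p names mark the arm of the hairpin, and usually one arm is kept and the other degraded. miR-99 and miR-100 are known to repress mTOR signalling, and miR-125 is the vertebrate relative of lin-4, a developmental timing RNA of worms. In smooth muscle, miR-125b has been described as restraining osteogenic change through the transcription factor Sp7. The genes lie in 3 clusters, each of which also holds a let-7 hairpin. let-7 miRNAs are known to repress growth genes, and their genes sit beside miR-100 and miR-125 genes in many animals.

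The mature sequences are shown because they define the families and show which members could exchange reads. All 7 matched RefSeq entries of build GRCm38.p6. They are printed 5′ to 3′, with the seed in capitals. The miR-99/100 family shares the seed ACCCGUA:
miR-99a-5p: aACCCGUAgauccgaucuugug
miR-100-5p: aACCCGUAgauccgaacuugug
miR-99b-5p: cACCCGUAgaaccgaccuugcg
The miR-125 family shares the seed CCCUGAG, also present in miR-351-5p, which is not in any of the clusters:
miR-125a-5p: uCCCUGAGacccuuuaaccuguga
miR-125b-5p: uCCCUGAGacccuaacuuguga
miR-351-5p: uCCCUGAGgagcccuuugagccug
The 3p members share the seed AAGCUCG:
miR-99a-3p: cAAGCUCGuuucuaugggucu
miR-99b-3p: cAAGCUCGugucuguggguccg

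Counting from 1 at the 5′ end of miR-99a-5p, miR-100-5p differs by the single substitution U16A. miR-99b-5p differs from miR-99a-5p by A1C, U11A, U16C and U21C. Both miR-125 members are alike over their first 13 bases and differ in length, 24 bases for miR-125a-5p and 22 for miR-125b-5p. The sources used here do not state how many mismatches the authors allowed, so some exchange of reads between miR-99a-5p and miR-100-5p is possible.

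In GRCm38 the first cluster, Mir99a, Mirlet7c-1 and Mir125b-2, starts on chromosome 16 at 77598936 and ends at 77646343, within introns of the long noncoding RNA gene Mir99ahg. Mir125b-2 also overlaps an exon of the model C130023A14Rik. The second, Mir100, Mirlet7a-2 and Mir125b-1, spans 41531425 to 41582002 on chromosome 9, within introns of 3110039I08Rik and Gm49317, and Mir125b-1 overlaps an exon of Gm28119. The third, Mir99b, Mirlet7e and Mir125a, is compact, from 17830188 to 17830879 on chromosome 17. It lies in the protein-coding gene Spaca6, where Mir125a overlaps an exon and the other hairpins are intronic. All 9 hairpins are on the plus strand. Mature miR-125b-5p is the same from both of its hairpins, so its reads cannot be assigned to chromosome 9 or 16, whereas the 3p arms miR-125b-1-3p and miR-125b-2-3p differ.

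The libraries held 17520690 and 16878392 reads of listed entries in Sham and 17532748 and 16658810 in CKD. miR-143-3p, the main smooth muscle miRNA, took 79.8% and 72.5% of reads in Sham 1 and Sham 2, and 41.1% and 40.8% in CKD 1 and CKD 2. Each library sums to the same total, so the other entries together take up the share that miR-143-3p loses, though single entries can still be lower. The summed smooth muscle markers (4 of 4 with reads in every library) ranged from 774989 to 833695 CPM in Sham and from 485612 to 488708 in CKD. Of these markers only miR-143-3p was lower in CKD on the deposited scale, with a log2 difference, CKD minus Sham, of -0.89. The differences of miR-143-5p (0.77), miR-145a-5p (0.85) and miR-145a-3p (1.81) were above 0. Trimmed-mean (TMM) scaling, explained below, put miR-143-3p at -2.48 (limma adjusted p = 0.012) and miR-145a-5p at -0.73 (limma adjusted p = 0.044). It put miR-143-5p at -0.81 (limma adjusted p = 0.080) and miR-145a-3p at 0.22 (limma adjusted p = 0.29). Summed markers of other cells were all higher in CKD on the deposited scale. There, both CKD libraries lay above both Sham libraries for 91.2% of tested entries. The 2 endothelial markers went from 2899 to 3411 CPM in Sham to between 9767 and 9989 in CKD, and the 5 red cell markers from 296 to 1052 CPM to between 1481 and 8070. The 4 leukocyte markers ranged from 75.9 to 219 CPM in Sham and from 409 to 446 in CKD. The 6 striated muscle markers ranged from 509 to 622 CPM and from 973 to 1204, with miR-206-3p at 0 in Sham 2. miR-122-5p of liver ranged from 1.43 to 25.5 CPM and from 56.0 to 161, and the 6 neural markers from 46.5 to 66.2 CPM and from 178 to 233. On the deposited scale these markers move with the group, as the members and most tested entries do. After TMM scaling the endothelial markers lay at 0.05 (miR-126a-3p) and 0.11 (miR-126a-5p). The leukocyte markers then lay on both sides of 0: miR-142a-3p at -1.18, miR-150-5p at -0.09, miR-142a-5p at 0.09 and miR-223-3p at 0.78. The part of the markers in the members' values was not tested. In such tissue RNA, a change in the cells present and a change per cell cannot be told apart.

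miR-125b-5p was the most abundant member, and ranked between the 4th and the 6th of all entries in every library. It had 9933 and 14061 CPM in Sham against 32309 and 38713 CPM in CKD. The groups did not overlap, with means of 11997 ± 2919 CPM in Sham and 35511 ± 4528 CPM in CKD (SD, n = 2). Its paralog miR-125a-5p, from the compact cluster, had 1823 and 2730 CPM in Sham against 6792 and 6003 CPM in CKD. miR-125b-5p thus held 51.9% and 52.2% of all members' reads in Sham against 49.7% and 55.1% in CKD.

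Among the miR-99/100 family, miR-99a-5p was the most abundant in every library. It had 3919 and 5428 CPM in Sham against 14773 and 14152 CPM in CKD. miR-99b-5p had 1697 and 2204 CPM in Sham against 6251 and 5732 CPM in CKD. miR-100-5p had 1737 and 2483 CPM in Sham against 4821 and 5596 CPM in CKD. The order for Sham was miR-125b-5p, miR-99a-5p, miR-125a-5p, miR-100-5p and miR-99b-5p, with the last pair reversed for CKD. Each order held in both libraries of its group. Across libraries the ranges of miR-125a-5p, miR-100-5p and miR-99b-5p overlapped in Sham, and those of miR-125a-5p and miR-99b-5p in CKD, while miR-100-5p lay below both there. Levels of different miRNAs are in CPM, and adaptor ligation can favour one sequence over another.

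The 3p arms, the strands that are usually discarded, were rare. miR-99b-3p had 15.4 and 18.2 CPM in Sham against 60.4 and 53.7 CPM in CKD, from between 269 and 1059 reads. miR-99a-3p was the rarest member, with 46 and 65 reads in Sham and 95 and 81 in CKD. That is 2.63 and 3.85 CPM in Sham against 5.42 and 4.86 CPM in CKD. Its Wilson 95% interval, which covers counting error only, ran from 1.97 to 3.50 CPM in Sham 1, from 3.02 to 4.91 in Sham 2, from 4.43 to 6.62 in CKD 1 and from 3.91 to 6.04 in CKD 2. The Sham 2 interval thus overlapped those of both CKD libraries. Together the members made up 2.30% ± 0.552 of reads in Sham and 6.76% ± 0.371 in CKD (SD, n = 2). Leaving miR-143-3p out of the total, they made up 9.48% and 9.80% in Sham against 11.0% and 11.9% in CKD.

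**Figure D1:**
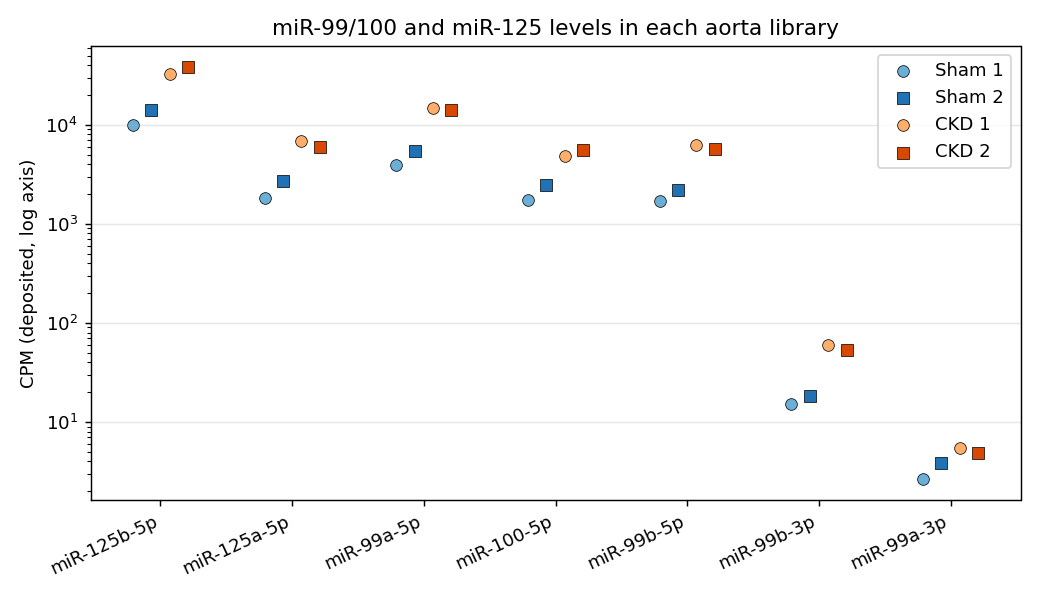
Deposited CPM (vertical log axis) of the 7 members in each of the 4 libraries, 1 point per library. Each member's lowest CKD point lies above its highest Sham point, and Sham 2 lies above Sham 1 for each member.

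The first comparison was Sham against CKD on the deposited scale. There, 6 of the 7 members rose in CKD and miR-99a-3p did not pass (limma on log2(CPM + 1), two-sided, Benjamini-Hochberg adjusted over all tested entries, threshold 0.05). Of all tested entries 82.9% rose in the same comparison, so the members' count is near the background. miR-99b-3p had the highest log2 difference, 1.71 (SE 0.35, limma adjusted p = 0.0018). miR-99a-5p rose by 1.65 (SE 0.30, limma adjusted p = 0.0012) and miR-99b-5p by 1.63 (SE 0.33, limma adjusted p = 0.0018). miR-125b-5p rose by 1.58 (SE 0.26, limma adjusted p = 9.9e-04), which is a 2.96-fold higher mean CPM, and miR-125a-5p by 1.52 (SE 0.34, limma adjusted p = 0.0026). miR-100-5p had the lowest difference of the 5p members, 1.32 (SE 0.34, limma adjusted p = 0.0049). miR-99a-3p lay at 0.55 (SE 0.29, limma adjusted p = 0.098).

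The median over the members was 1.58, against 1.34 over all tested entries and 1.54 over the 48 entries with a mean of at least 1000 CPM. For all 7 members the lowest CKD value exceeded the highest Sham value, as it did for 91.2% of tested entries. Leaving out a library leaves its group with 1, which limma assumes to vary like the other group. Without CKD 1 miR-125b-5p alone was called (log2 difference 1.71, limma adjusted p = 0.045). The differences of the other members called with all 4 libraries then lay between 1.43 and 1.63. Without CKD 2 miR-99a-5p (1.68, limma adjusted p = 0.036) and miR-99b-5p (1.69, limma adjusted p = 0.043) were called, and the other members called with all 4 libraries lay between 1.21 and 1.79. Without Sham 2 all 7 were called, with miR-99a-3p at an adjusted p of 0.042 (limma). Nothing in the labels says that the libraries of a group are separate experiments, so the p-values speak only of the spread among 4 pooled libraries, and that spread may be technical.

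Relative to the shift shared by most entries, no member was called. Trimmed-mean (TMM) scaling takes out that shift by assuming that most miRNAs did not change. With it 0 of 7 members passed (limma; 1 at an unadjusted p under 0.05), against 7.72% of all tested entries. edgeR's quasi-likelihood test and DESeq2 on the recovered reads also called 0 members, with 1 and 0 at an unadjusted p under 0.05. The 5p members lay between -0.26 and 0.06, with miR-99a-5p at 0.06 (SE 0.10), miR-99b-5p at 0.04 (SE 0.11), miR-125b-5p at -0.00 (SE 0.16), miR-125a-5p at -0.07 (SE 0.10) and miR-100-5p at -0.26 (SE 0.15). The rarest member lay farthest from 0. miR-99a-3p was at -0.72 (SE 0.14, limma adjusted p = 0.058), the opposite sign to its deposited difference, while miR-99b-3p was at 0.17 (SE 0.15, limma adjusted p = 0.48).

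On the TMM scale miR-99a-3p had 5.49 and 5.53 scaled CPM in Sham against 3.00 and 2.93 in CKD, without overlap. Also lower in CKD without overlap were miR-100-5p (3628 and 3569 against 2665 and 3371) and miR-125a-5p (3809 and 3924 against 3755 and 3616). miR-99b-3p was higher without overlap (32.1 and 26.2 against 33.4 and 32.4). The share of all tested entries without overlap on this scale was not computed. miR-99a-5p, from the same hairpin, had 8188 and 7801 scaled CPM in Sham against 8167 and 8524 in CKD, with overlap. miR-125b-5p spread widely in CKD, with 17862 and 23319 scaled CPM on either side of the Sham values of 20753 and 20209.

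**Figure D2:**
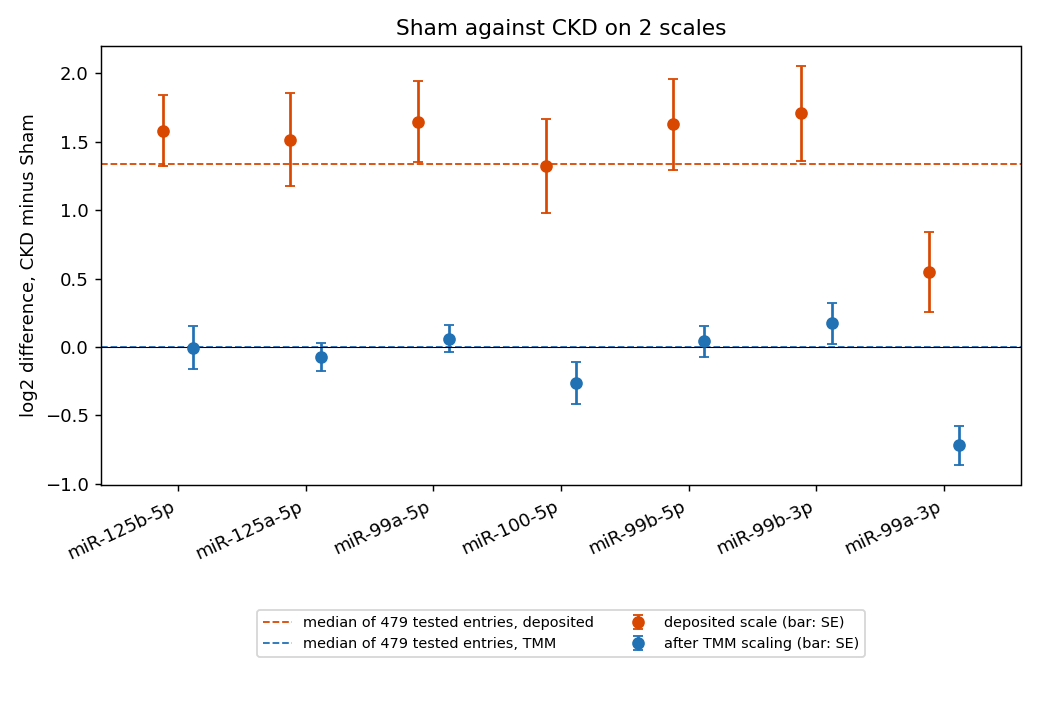
Log2 difference, CKD minus Sham (vertical axis), of each member on the deposited scale and after TMM scaling. Points are limma estimates, bars are 1 SE, and dashed lines are the medians of the tested entries, 1.34 and -0.00. The 5p members lie between 1.32 and 1.65 on the deposited scale and between -0.26 and 0.06 after scaling, and miR-99a-3p lies below it on both.

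Ratios of reads within a library do not depend on how libraries are scaled, and 15 were computed: 5 arm ratios and 10 between different miRNAs. With 2 libraries against 2, the two-sided exact permutation test cannot give a p below 0.333, so no ratio can pass a threshold of 0.05, and the smallest adjusted p was 0.714. Over 118 hairpins with at least 10 reads of each arm in every library, the arm ratios of both CKD libraries lay on 1 side of both Sham libraries in 61.9%, 38 higher and 35 lower. For ratios between different miRNAs no such share was computed, so how common a lack of overlap is among them is not known here.

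The 5p arm outnumbered the 3p arm in every library for miR-99a, miR-99b, miR-100, miR-125a and miR-125b, by more than 1000 times for miR-99a and miR-100. The miR-99a arm ratio was 1493 and 1409 in Sham against 2727 and 2910 in CKD. It was thus higher in both CKD libraries, by 0.96 on the log2 scale, or 1.94-fold (exact permutation p = 0.333, n = 2 per group). The SD of the log2 ratio was 0.06 in Sham and 0.07 in CKD. By size of change it ranked 14th of the 118 hairpins. miR-99a-3p has 21 bases, below the 22 to 30 nucleotides that the labels give for library RNA. Any part of this in its counts was not tested. The 3p arm made up 0.0670% and 0.0709% of miR-99a reads in Sham, with Wilson 95% intervals of 0.0502% to 0.0893% and 0.0556% to 0.0904%. In CKD it made up 0.0367% (0.0300% to 0.0448%) and 0.0343% (0.0276% to 0.0427%), below both Sham intervals.

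The paralogous hairpin miR-99b had a lower arm ratio in both CKD libraries. Its arm ratio was 111 and 121 in Sham against 103 and 107 in CKD, a log2 difference of -0.14 (exact permutation p = 0.333, n = 2 per group). The Wilson intervals of its 3p share overlapped between all libraries, from 0.735% to 0.918% in Sham 2 and 0.901% to 1.02% in CKD 1 at the extremes. The miR-125a arm ratio was 491 and 606 in Sham against 620 and 588 in CKD. The miR-100 ratio was 3381 and 2206 in Sham against 2415 and 3329 in CKD, resting on 9 to 35 reads of miR-100-3p. Both overlapped between the groups.

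**Figure D3:**
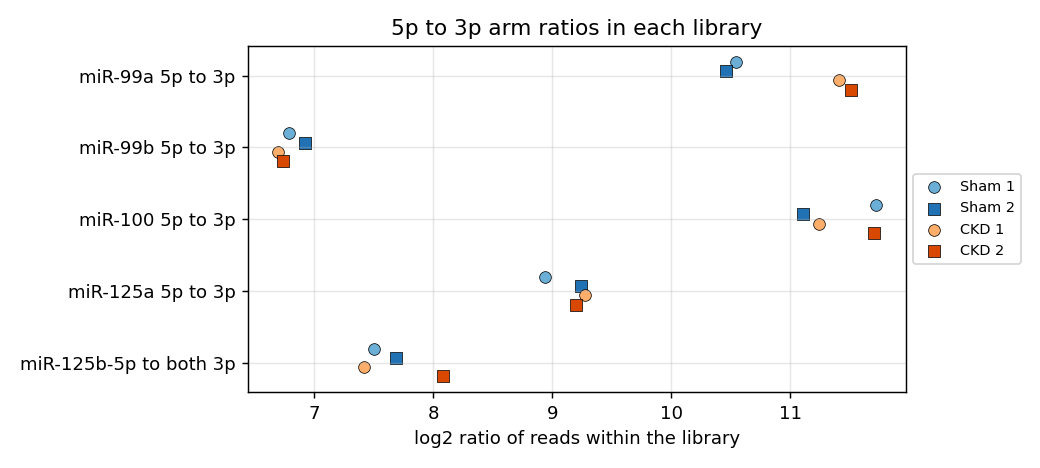
Log2 of the 5p to 3p read ratio within each library (horizontal axis), 1 point per library, for 5 arm ratios. The miR-99a points of CKD lie right of those of Sham, with a log2 difference of 0.96, while the miR-100, miR-125a and miR-125b ratios overlap.

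Among the 5p members, most ratios between paralogs or families overlapped between the groups. miR-125b-5p outnumbered miR-125a-5p by 5.45 and 5.15 times in Sham and by 4.76 and 6.45 times in CKD, with overlap. Without CKD 2 its log2 difference of 0.06 turned to -0.16. miR-99a-5p and miR-100-5p together outnumbered miR-99b-5p by 3.33 and 3.59 times in Sham and by 3.13 and 3.45 times in CKD. The miR-125 members together stood at 1.60 and 1.66 times the miR-99/100 5p members in Sham and 1.51 and 1.75 times in CKD. The ratio of miR-99a-5p to miR-100-5p was the exception among them. It was 2.26 and 2.19 in Sham against 3.06 and 2.53 in CKD, without overlap, a log2 difference of 0.33 (exact permutation p = 0.333, n = 2 per group).

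The 3p arms of the paired miR-125b hairpins, which tell chromosome 9 from chromosome 16, differed in balance between the groups without overlap. They are shown with the seed in capitals:
miR-125b-1-3p: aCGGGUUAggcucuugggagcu
miR-125b-2-3p: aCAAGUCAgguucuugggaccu
miR-125b-1-3p had 272 and 363 reads in Sham against 1657 and 1191 in CKD. miR-125b-2-3p had 690 and 788 reads in Sham against 1652 and 1190 in CKD. The ratio of the first to the second was 0.394 and 0.461 in Sham against 1.00 in both CKD libraries, 2.35-fold higher (log2 difference 1.23, exact permutation p = 0.333, n = 2 per group). The chromosome 16 arm thus held 71.7% (Wilson 68.8% to 74.5%) and 68.5% (65.7% to 71.1%) of these 3p reads in Sham. It held 49.9% (48.2% to 51.6%) and 50.0% (48.0% to 52.0%) in CKD. The near-equal reads in both CKD libraries were found after the values were seen, and whether the counting of reads plays a part was not tested. The split between the chromosomes holds only if the reads of these arms were counted apart. The arms differ at 5 positions, counted from 1 at the 5′ end of miR-125b-2-3p: A3G, A4G, C7U, U11C and C20G.

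On the deposited scale miR-125b-1-3p rose by 2.11 (SE 0.37, limma adjusted p = 0.0011) and miR-125b-2-3p by 0.92 (SE 0.38, limma adjusted p = 0.042). The second call was lost without the filter (limma adjusted p = 0.071), with a minimum of 10 CPM (0.053) and without Sham 1, CKD 1 or CKD 2 in turn (0.075 to 0.40). Relative to the shift miR-125b-1-3p lay at 0.57 (SE 0.15, limma adjusted p = 0.10) and miR-125b-2-3p at -0.64 (SE 0.18, limma adjusted p = 0.11). DESeq2 called the first higher (0.62, adjusted p = 0.029) and the second lower (-0.62, adjusted p = 0.041), while edgeR called neither (adjusted p = 0.11 and 0.12). The main arm, miR-125b-5p, outnumbered both 3p arms together by 181 and 206 times in Sham and by 171 and 271 times in CKD.

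The other arms, the let-7 partners of the clusters and 3 miRNAs with the same or a nearby seed made up a list of 13, of which 12 were tested. On the deposited scale 10 of the 12 rose, with a median log2 difference of 1.15, against 82.9% and 1.34 over all tested entries. With TMM scaling 1 fell and 11 did not pass, with a median of -0.40 (limma). Over all tested entries 7.72% were called higher or lower on that scale, with a median of -0.00. Without CKD 1 the deposited count was 1, and without CKD 2 it was 3. let-7a-2-3p, with 6 to 31 reads, did not pass the filter and was not among the 12.

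The main let-7 arms had smaller differences than the 5p members beside them. let-7c-5p had 6369 and 7896 CPM in Sham against 13976 and 17929 CPM in CKD, a rise of 1.16 in deposited units (SE 0.28, limma adjusted p = 0.0037). let-7a-5p had 4600 and 5807 CPM in Sham against 10377 and 13816 CPM in CKD, and rose by 1.21 (SE 0.30, limma adjusted p = 0.004). let-7e-5p had 798 and 1027 CPM in Sham against 1647 and 2255 CPM in CKD, and rose by 1.09 (SE 0.38, limma adjusted p = 0.021). Relative to the shift these were at -0.43, -0.37 and -0.50, none of them called. let-7e-5p comes only from the compact cluster, whereas let-7a-5p and let-7c-5p are also made from hairpins elsewhere.

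Within the compact cluster on chromosome 17, miR-99b-5p and miR-125a-5p stood higher relative to let-7e-5p in both CKD libraries, while their ratio to each other overlapped between the groups. The ratio of miR-99b-5p to let-7e-5p was 2.13 and 2.15 in Sham against 3.80 and 2.54 in CKD. The ratio of miR-125a-5p to let-7e-5p was 2.28 and 2.66 in Sham against 4.12 and 2.66 in CKD, where CKD 2 barely exceeded Sham 2. The ratio of miR-99b-5p to miR-125a-5p was 0.931 and 0.807 in Sham against 0.920 and 0.955 in CKD, with overlap. The ratio of miR-99a-5p to let-7c-5p also did not overlap, at 0.615 and 0.687 in Sham against 1.06 and 0.789 in CKD. The ratio of miR-100-5p to let-7a-5p did, at 0.377 and 0.428 in Sham against 0.465 and 0.405 in CKD. The 3 ratios without overlap had log2 differences of 0.54, 0.43 and 0.49 (exact permutation p = 0.333 each, n = 2 per group). They were larger in CKD 1, with 0.25, 0.11 and 0.28 left without that library, and the log2 SD in CKD was 0.41, 0.45 and 0.30.

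**Figure D4:**
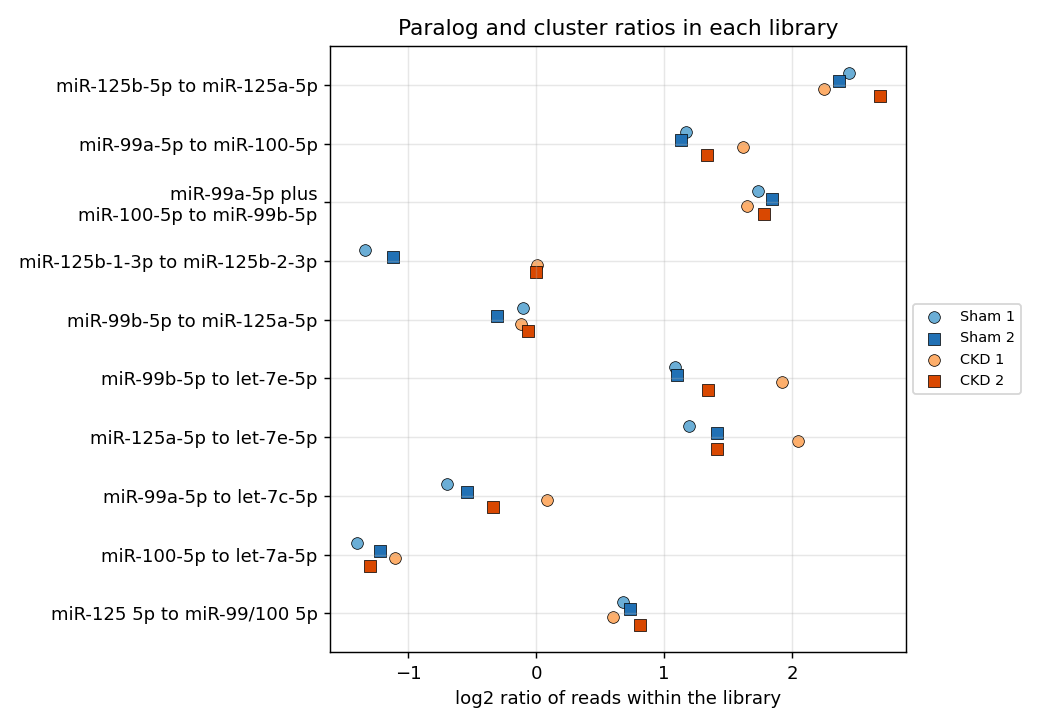
Log2 of read ratios between different miRNAs within each library (horizontal axis), 1 point per library. The miR-125b-1-3p to miR-125b-2-3p ratio has the widest gap between Sham and CKD, and the ratios to let-7e-5p and let-7c-5p are farther from Sham in CKD 1 than in CKD 2.

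The minor arms let-7e-3p and let-7c-1-3p had larger deposited differences than let-7e-5p and let-7c-5p. let-7a-2-3p, fitted only without the filter, lay at 0.84 against 1.21 for let-7a-5p. At its 0.34 to 1.77 CPM the log2(CPM + 1) scale understates the change. By mean CPM let-7a-2-3p was 3.96-fold higher in CKD and let-7a-5p 2.32-fold, the former from 6 to 31 reads. let-7e-3p had 7.42 and 12.1 CPM in Sham against 35.5 and 27.3 CPM in CKD, and rose by 1.62 (SE 0.35, limma adjusted p = 0.0021). let-7c-1-3p, which marks the chromosome 16 hairpin, had 19 and 13 reads in Sham against 110 and 94 in CKD, and rose by 1.86 (SE 0.30, limma adjusted p = 9.5e-04). Relative to the shift they were at 0.12 and 0.76, and neither was called. miR-125a-3p rose by 1.18 (SE 0.28, limma adjusted p = 0.0034), and miR-100-3p lay at 0.66 (limma adjusted p = 0.084). Both were below 0 relative to the shift, at -0.19 and -0.18.

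Of the relatives by seed, miR-351-5p departed from the miR-125 members. This miRNA of the X chromosome had 9.30 and 13.98 CPM in Sham against 17.7 and 14.7 CPM in CKD, and lay at 0.46 before TMM scaling (SE 0.32, limma adjusted p = 0.20). Relative to the shift it fell by 1.01 (SE 0.13, limma adjusted p = 0.023), and edgeR called it as well (adjusted p = 0.02). DESeq2 also called it (-1.05, adjusted p = 0.0011). Without any 1 of the 4 libraries, with 1 library left in that group, it lay between -1.06 and -0.93 and was not called (limma adjusted p from 0.11 to 0.19). miR-10a-5p and miR-10b-5p come from the Hox gene clusters, and their seed, ACCCUGU, resembles that of miR-99. Before TMM scaling miR-10a-5p rose by 1.14 (SE 0.32, limma adjusted p = 0.0073) and miR-10b-5p by 1.04 (SE 0.40, limma adjusted p = 0.029). Both calls were lost without the filter (limma adjusted p = 0.052 for miR-10a-5p and 0.053 for miR-10b-5p) and without CKD 1 or CKD 2 in turn. The call of miR-10b-5p was also lost without Sham 1. With 1 library left out, the difference ranged from 0.90 to 1.39 for miR-10a-5p and from 0.82 to 1.27 for miR-10b-5p. After TMM scaling the differences were -0.44 and -0.54, neither called by limma, while DESeq2 called miR-10b-5p lower (-0.50, adjusted p = 0.010).

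The miRNAs most like the mean profile of the 5p members were picked from 109 others with a mean of at least 100 CPM, by the root mean square difference of centred log2(CPM + 1) over the 4 libraries. They were miR-26a-5p (0.026), miR-1839-5p (0.029), miR-28a-5p (0.050), miR-379-5p (0.062) and miR-195a-5p (0.064). The 5p members lay at 0.062 for miR-99a-5p, 0.079 for miR-125a-5p and miR-99b-5p, 0.087 for miR-125b-5p and 0.13 for miR-100-5p. The 3p members lay farther off, at 0.14 for miR-99b-3p and 0.50 for miR-99a-3p. All these profiles share the same 4 libraries and the shift between them.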

How the data were processed

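Aortic small RNA was sequenced for 2 libraries each of Sham and CKD. A gel slice of 18 to 30 nucleotides received 3′ and 5′ adaptors, per the labels' protocols, with no molecular identifiers described, so intervals cover counting error only. The labels also give 22 to 30 nucleotides for the RNA used in the libraries. Per the submitters' processing notes, Bowtie and the GRCm38 genome were used, and the sources used here state no counting rules. The deposited values sum to about 1000000 per library and were read as CPM made by the authors. In 3 of the 4 files names stand above values and were paired by order. Dividing by what 1 read is worth gave whole reads, to within 0.005 CPM, for 100% of the values above 0.

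limma 3.58.1 (trend, group as the only term) was fitted to log2(CPM + 1), a scale that understates the change of low entries. edgeR 4.0.16 and DESeq2 1.42.0 ran on recovered reads. The design foresaw TMM factors from the recovered reads (0.479 and 0.696 in Sham, 1.81 and 1.66 in CKD), applied to the CPM, as an alternative. The fit was tested on simulated counts. Members, lists and tests were chosen with earlier results of these data known. Named were all members, the fixed list of partners and relatives, and the 5 most alike miRNAs. Of the ratios, 10 were added after the values were seen, as was leaving out libraries after TMM scaling. Sequences and coordinates come from RefSeq (GRCm38.p6), host genes from GENCODE annotation of GRCm38.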

Additional observations from a re-analysis of the deposited data

How the results depend on the processing

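The calls of members depended on the scaling: 6 rose in deposited CPM, against 0 with TMM scaling, median-of-ratios scaling, totals without miR-143-3p, edgeR or DESeq2. Leaving out 1 library gave 1 to 7 members on the deposited scale and 0 after TMM. Of the 12 partners and relatives 10 rose, against 0 with TMM, median-of-ratios, totals without miR-143-3p and edgeR, 1 with DESeq2, 6 without the filter and 1 to 11 with 1 library left out; 1 fell with TMM, median-of-ratios and edgeR, and 3 with DESeq2. Over all entries, 397 rose and 5 fell on the deposited scale, 9 and 28 with TMM, 14 and 14 with totals without miR-143-3p, 8 and 23 with edgeR, and 26 and 48 with DESeq2. With the replicate block, 6 members, 8 partners and 347 entries rose; miR-125b-2-3p (limma adjusted p = 0.13), miR-10b-5p (0.086) and, after TMM, miR-351-5p (0.063) lost their calls. Same-numbered libraries shared only a number in the labels (correlation of deviations 0.0999 deposited, 0.118 after TMM).

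Differences above 0 on the deposited scale lay below it, in the order TMM, median-of-ratios, edgeR, DESeq2 and totals without miR-143-3p, as follows; these scalings take out the shift by construction. miR-99a-3p was at -0.72, -0.69, -0.89, -0.86 and -0.51, and miR-100-5p at -0.26, -0.23, -0.25, -0.22 and -0.0033. miR-351-5p was at -1.01, -0.98, -1.09, -1.05 and -0.77, and miR-125b-2-3p at -0.64, -0.61, -0.65, -0.62 and -0.38. let-7c-5p was at -0.43, -0.40, -0.41, -0.38 and -0.17, let-7a-5p at -0.37, -0.34, -0.35, -0.32 and -0.11, and let-7e-5p at -0.50, -0.46, -0.47, -0.44 and -0.24. miR-10a-5p was at -0.44, -0.41, -0.42, -0.39 and -0.18, miR-10b-5p at -0.54, -0.51, -0.53, -0.50 and -0.28, and miR-100-3p at -0.18, -0.16, -0.35, -0.32 and -0.038. With the first 4 scalings miR-125a-5p was at -0.069, -0.036, -0.069 and -0.036, and miR-125a-3p at -0.19, -0.16, -0.22 and -0.18. miR-125b-5p was at -0.0049 with TMM alone.

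With 1 library left out, the log2 difference ranged from 0.91 to 1.00 for the miR-99a arm ratio, from -0.20 to -0.07 for miR-99b and from 1.12 to 1.35 for miR-125b-1-3p to miR-125b-2-3p. The sign changed for 5 ratios: miR-100 arms (-0.25 to 0.36), miR-125a arms (-0.0055 to 0.30), miR-125b arms (-0.17 to 0.49), miR-125b-5p to miR-125a-5p (-0.16 to 0.28) and the miR-125 to the miR-99/100 5p members (-0.11 to 0.11). Depth limits miR-99a-3p and miR-100-3p, where 3 reads are 0.171 to 0.180 CPM.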
